A study of Homo sapiens with 10 samples.

Results

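Assays that carry 5 withdrawn microRNA names were followed through a set of probe purifications. They are hsa-miR-1979, hsa-miR-720, hsa-miR-1974 (bracketed on the panel), hsa-miR-886-5p and hsa-miR-886-3p, given below without the species prefix. They were picked by assay name from 745 assays on the panels (5 of 745). Panel 1 held 4 of them and panel 2 held miR-1974. The study pulled RNA out of living cells with a nucleic acid probe against a chosen mRNA, a procedure named miRIP in the labels, and read the recovered small RNA by quantitative PCR. A probe was put into the cells for 24 hours, and bound material was collected on streptavidin beads.

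The groups were HepG2, a human liver tumour line, with a p21 probe, with a STAT3 probe and with a control probe, and PC-3, a human prostate cancer line, with a p21 probe and with a control probe. The p21 mRNA encodes an inhibitor of cyclin-dependent kinases, and the STAT3 mRNA encodes a transcription factor switched on by cytokines. Each of the 5 purifications was run on both panels (10 samples). Each was done 1 time, so differences between purifications lack a replicate check and were not tested. The lines were grown in different media, so line and medium cannot be told apart. The labels give no probe sequence.

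As background, microRNAs are cut from hairpin precursors by Drosha and Dicer and act in Argonaute proteins, whereas these 5 names were removed from the microRNA registry when their reads were recognised as pieces of other abundant RNAs. miR-720 matches a transfer RNA for threonine, and miR-1974 matches a mitochondrial transfer RNA, so that its parent is transcribed inside mitochondria. miR-1979 has been reported to match Y3 RNA, a small cytoplasmic RNA of the Ro ribonucleoprotein. The miR-886 arms come from a short RNA polymerase III transcript once classed with the vault RNAs and known to bind the kinase PKR. U6 is a nuclear spliceosomal RNA, and SNORD38B and SNORD49A are nucleolar RNAs that guide ribose methylation; none of these is a microRNA either, and all 3 were assayed on both panels.

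In the RefSeq gene table (GRCh38.p14), 2 of the 5 names were matched: both miR-886 arms to VTRNA2-1, annotated as a vault RNA of 108 bases on chromosome 5, from 136080491 to 136080598. The RefSeq microRNA table gave a mature sequence for 0 of the 5. The nature of the other parents rests on background knowledge and was not tested with these files. Among microRNA assays of the same panel detected in all 5 purifications, miR-324-3p lay nearest to miR-720 in profile and miR-520h to miR-1974. The candidates numbered only 5 and 2, and SNORD49A was nearer to both members. The RefSeq sequences (GRCh38.p14) of miR-324-3p and miR-520h are shown because both are conventional microRNAs, with the seed, bases 2 to 8, in capitals.
miR-324-3p: cCCACUGCcccaggugcugcugg
miR-520h: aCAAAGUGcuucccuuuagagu
The first lies on chromosome 17 from 7223308 to 7223330 on the minus strand, and miR-520h on chromosome 19 from 53742566 to 53742587 on the plus strand. Their seeds differ.

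Values are quantification cycles (Cq). The lower the Cq, the more template was present, and 1 cycle is read as 1 log2 unit. An assay counted as detected at a Cq of at most 35. From assays present on both panels, the SD of a single Cq was 0.634 cycles (22 pairs of wells). The SD of a difference between a target and a control purification was 0.724 cycles (11 pairs). Both include offsets between the panels. Wells of UniSp3, a synthetic calibrator, repeated within a plate had a larger SD, 1.005 cycles (10 plates). A difference of 1 log2 unit is about the size of that SD. The error of transfection and purification is not part of these figures. Water wells gave a Cq in 0 of 45. The line labels could not be checked well from marker microRNAs. Of 5 liver-enriched microRNAs, 4 were detected with the STAT3 probe and 0 in any other purification, and miR-122 gave no Cq anywhere. Of miR-221, miR-222, miR-21 and miR-24, which PC-3 is known to express, 4 were detected in each HepG2 purification, 3 with the p21 probe in PC-3 and 0 with the PC-3 control.

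The names miR-720, miR-1974 and miR-1979 gave some of the strongest signals on the panels. Detected members numbered 5 of 5 with the p21 probe in HepG2, where 28.3% of all assays were detected. With the STAT3 probe in HepG2 there were 5 of 5 (34.4% of all assays), and with the HepG2 control 3 of 5 (16.8%). In PC-3 there were 3 of 5 with the p21 probe (7.11%) and 4 of 5 with the control (2.15%). Because the members were chosen with earlier results of these data known, these counts describe them and support nothing further. Only 9 of 745 assays were detected in all 5 purifications, and 3 of the 9 were miR-1979, miR-720 and miR-1974.

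miR-720, the fragment of a threonine transfer RNA, had Cq 24.69 with the p21 probe, 25.11 with the STAT3 probe and 27.02 with the control probe in HepG2. In PC-3 it had 26.50 with the p21 probe and 30.49 with the control probe. Both target purifications of HepG2 were lower in Cq than their control, and so was the p21 purification of PC-3, with the PC-3 control at the weak end. Ordered by Cq over both panels, miR-720 was the lowest of 256 detected assays with the STAT3 probe, of 125 with the HepG2 control and of 53 with the p21 probe in PC-3. It stood in place 2 of 211 with the p21 probe in HepG2 and in place 2 of 16 with the PC-3 control. Assays may differ in efficiency, so such places order signals, not molecules.

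miR-1979, the name reported to match Y3 RNA, moved in another order. Its Cq was 28.48 with the p21 probe, 25.92 with the STAT3 probe and 27.94 with the control probe in HepG2, and 27.97 with the p21 probe and 33.97 with the control probe in PC-3. The STAT3 purification was thus the strongest and the PC-3 control by far the weakest, while the p21 purifications of the lines and the HepG2 control lay within 0.54 cycles, less than the SD of a repeated Cq. In place by Cq it was 18 of 211 with the p21 probe, 3 of 256 with the STAT3 probe and 3 of 125 with the control in HepG2. It was 3 of 53 with the p21 probe and 8 of 16 with the control in PC-3.

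By Cq alone, miR-1974, the mitochondrial transfer RNA fragment on panel 2, separated the cell lines more than the probes. Its Cq in HepG2 was 26.46 with the p21 probe, 25.51 with the STAT3 probe and 27.13 with the control probe. In PC-3 it was 30.11 with the p21 probe and 29.46 with the control probe. The 3 HepG2 values lay below both PC-3 values, with no overlap. The neighbours 29.46 and 30.11 differed by about the SD of a single Cq. Of the 9 assays detected in all 5 purifications, miR-324-3p and miR-520h also showed this order. Their highest HepG2 Cq was 32.8 and 33.3, against a lowest PC-3 Cq of 33.0 and 33.7. Assays lost in a PC-3 purification are not among the 9 and can show the same order. The highest HepG2 Cq of miR-24 was 30.25, against 32.30 and 36.38 in PC-3, and that of miR-222 was 32.49, against 33.64 and 37.40. The share of all assays with this order was not computed, so it is not shown to be particular to miR-1974. Fewer assays of any kind were detected in PC-3, 7.11% and 2.15%, against 16.8% to 34.4% in HepG2. miR-1974 had the lowest Cq of panel 2 in 4 of the 5 purifications. It was in place 2 of 83 on that panel with the p21 probe in HepG2. How many cells entered each purification and how well RNA was recovered from them cannot be told apart in these values.

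The miR-886 arms gave higher Cq values than the other names wherever both had a Cq. miR-886-5p had Cq 30.76 with the p21 probe and 33.62 with that against STAT3 in HepG2, against 39.26 with the HepG2 control, above the limit. miR-886-3p had 31.12 with the p21 probe and 34.10 with that against STAT3, against 36.59 with the HepG2 control. In HepG2 both arms were therefore detected with each target probe and not with the control. In PC-3 the p21 purification gave no Cq for either arm, against 34.92 for miR-886-5p and 35.82 for miR-886-3p with the PC-3 control. These PC-3 control values lie at the limit, where few template molecules are present.

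**Figure D1:**
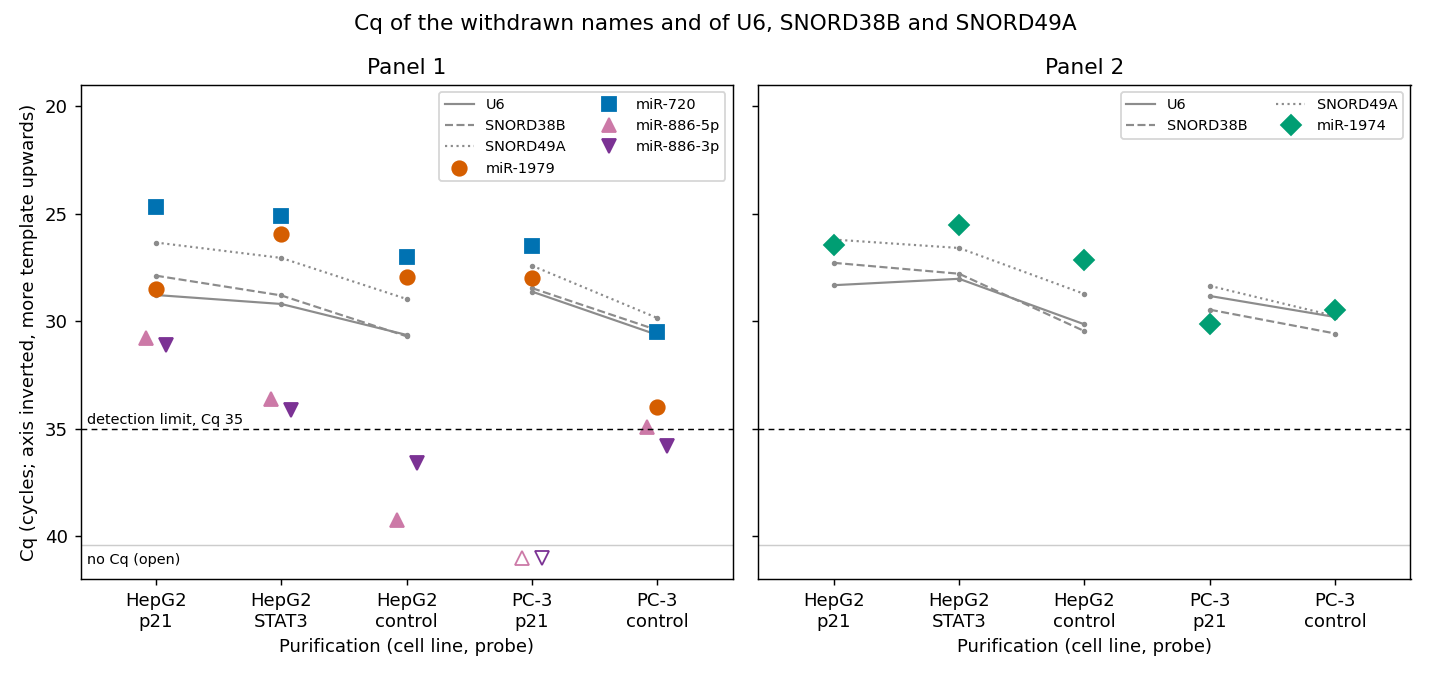
Cq of each withdrawn name in the 5 purifications (vertical axis in cycles, inverted so that more template is higher), for panel 1 and panel 2, with U6, SNORD38B and SNORD49A of the same panel as grey lines joined within a cell line. Each point is 1 well, open symbols mark wells without a Cq, and the dashed line is the limit of 35; miR-720 runs from 24.69 to 30.49 and miR-1979 from 25.92 to 33.97.

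The 3 names detected everywhere also varied most. Among the 9 assays detected in all 5 purifications, the range of Cq was 8.05 cycles for miR-1979, 5.80 for miR-720 and 4.59 for miR-1974. The other 6 ranged over 1.15 to 2.64 cycles. Their mean Cq lay between 30.41 and 33.76, against 26.76 to 28.86 for the withdrawn names, and an assay close to the limit of 35 has less room to vary and stay detected. U6, SNORD38B and SNORD49A, which are not near the limit, ranged over 2.01 to 3.56 cycles.

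Set against U6, SNORD38B and SNORD49A of the same panel, miR-720 hardly varied among the HepG2 purifications but did between those of PC-3. Its level over the mean of the 3 reference RNAs, in log2 units, was 2.97 with the p21 probe, 3.23 with the STAT3 probe and 3.08 with the control probe in HepG2. These lie within 0.26 units, below the SD of a repeated Cq. In PC-3 the level was 1.66 with the p21 probe and -0.19 with the control probe.

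miR-1979 gave -0.82 with the p21 probe, 2.42 with the STAT3 probe and 2.16 with the control probe in HepG2 on this scale. In PC-3 it gave 0.20 with the p21 probe and -3.68 with the control probe. The HepG2 p21 purification stood 3.24 units under the STAT3 purification and 2.97 under the control. On the same scale miR-1974 gave 0.80 with the p21 probe, 1.95 with the STAT3 probe and 2.65 with the control probe in HepG2, and -1.23 with the p21 probe and 0.58 with the control probe in PC-3. The HepG2 value of 0.80 lay close to the PC-3 value of 0.58, so here miR-1974 did not separate the lines more than the probes. On this scale it was lower with the p21 probe than with the control in both lines, by 1.85 in HepG2 and 1.81 in PC-3. That shared direction depended on the scale. In HepG2 the difference was 0.67 without centring, 0.31 on the UniSp6 spike-in and 0.50 on the UniSp3 calibrator, and in PC-3 it was -0.64, -0.051 and 0.07 in the same order.

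The miR-886 arms lay below the reference RNAs wherever they were detected. miR-886-5p was at -3.09 with the p21 probe and -5.28 with that against STAT3 in HepG2, and at -4.62 with the PC-3 control. miR-886-3p was at -3.45 with the p21 probe and -5.76 with that against STAT3.

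**Figure D2:**
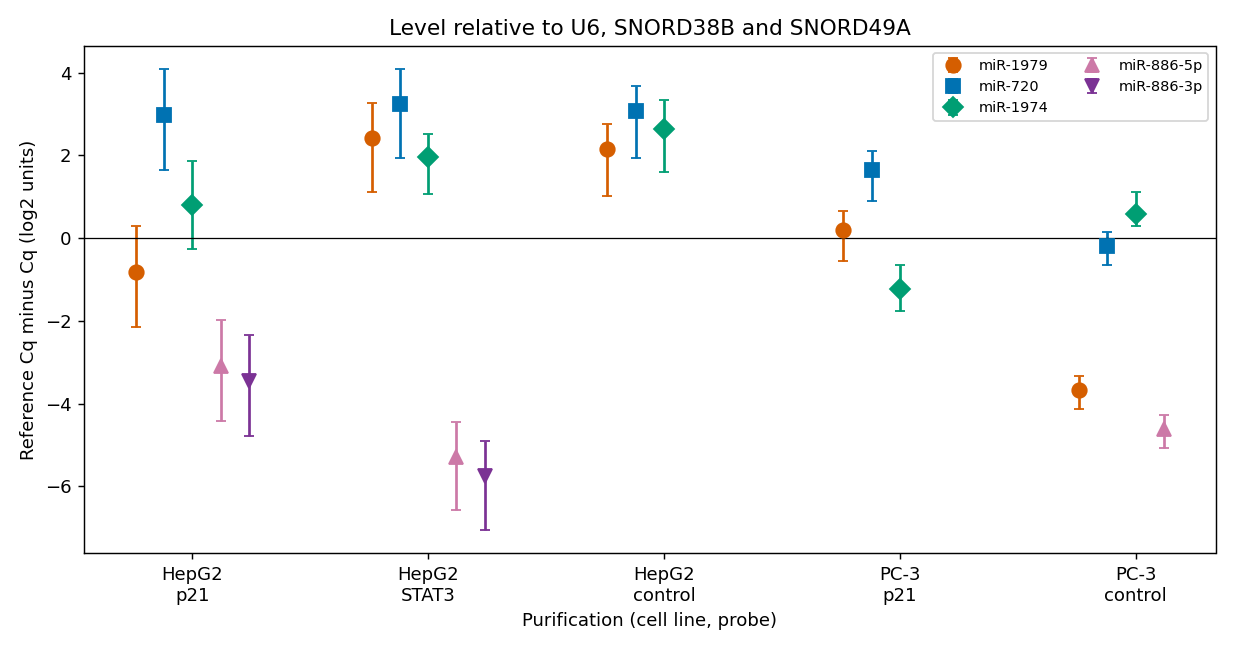
Level of each withdrawn name over the mean of U6, SNORD38B and SNORD49A of its panel (log2 units, reference Cq minus own Cq) in the purifications where it was detected. Points use the mean of the 3 reference RNAs and bars span the values from each of the 3 alone; miR-720 stays between 2.97 and 3.23 in HepG2 and miR-1979 drops to -3.68 with the PC-3 control.

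For comparisons between purifications, a difference was the second Cq minus the first, centred on the median of the panel's microRNA assays detected in both, and a centred size of at least 1 log2 unit (2-fold) was counted. With the p21 probe against the control in HepG2, the 3 members measured with both probes split. miR-720 was 1.03 log2 units above the panel (2.04-fold) and miR-1979 stood at -1.84 (0.28 of the panel shift), while miR-1974 stood at -0.40. The count of 1 higher and 1 lower of 3 can be set beside 37.9% of 103 assays higher and 36.9% lower. The median of the 3 was -0.40, against 0 for all assays by construction.

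U6, SNORD38B and SNORD49A themselves shifted by 1.86, 2.82 and 2.63 cycles towards the p21 probe on panel 1. miR-720 shifted by 2.33 without centring, so relative to the 3 reference RNAs it was at -0.11, which ends its call and turns its sign. miR-1979 was at -2.97 and miR-1974 at -1.85 on that reference, both past 2-fold. The direction of miR-1979 also depended on the centre. It was -0.54 without centring and -0.77 on the UniSp6 spike-in, both under 2-fold, and 1.74 on UniSp3, a synthetic calibrator whose 3 wells ran from 21.60 to 24.91 in the p21 purification, against 20.51 to 21.06 in the control purification.

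Both miR-886 arms were detected with the p21 probe only in this comparison, as were 108 assays in all. With the control set at Cq 35, miR-886-5p was at least 7.69-fold higher after centring and miR-886-3p at least 5.99-fold higher. These bounds took places 6 and 8 among the 108. Relative to U6, SNORD38B and SNORD49A the bounds were 3.50-fold and 2.73-fold, still above 2-fold.

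With the STAT3 probe against the same HepG2 control, miR-1979 (1.53, 2.88-fold) and miR-720 (1.41, 2.66-fold) were higher and miR-1974 was between, at 0.48. That was 2 of 3 higher and 0 lower, beside 29% of 100 assays higher and 25% lower. The median of the 3 was 1.41. On panel 1, U6 shifted by 1.44 cycles, SNORD38B by 1.90 and SNORD49A by 1.91, close to the uncentred 2.02 of miR-1979 and 1.91 of miR-720. Relative to these RNAs miR-1979 was at 0.27, miR-720 at 0.15 and miR-1974 at -0.70, and 0 of the 3 reached 2-fold. miR-886-5p and miR-886-3p were again detected with the target probe only, as were 156 assays in all. They were at least 1.85-fold and 1.32-fold higher after centring, in places 22 and 46 among the bounds of the 156. On the reference RNAs these bounds fell below 1, so no fold can be given.

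With the p21 probe against the control in PC-3, miR-1979 was the highest of the 10 assays measured with both probes and miR-720 the next. miR-1979 was 4.11 above the panel (17.3-fold) and miR-720 2.09 above it (4.25-fold), with miR-1974 at -0.48. The count was 2 of 3 higher and 0 lower, beside 20% of 10 assays higher and 10% lower. Among those 10, only miR-1979 and miR-720 were called higher. Another 43 assays passed the limit in the p21 purification alone and 6 in the control purification alone, so these lacked a measured difference. An assay already weak with the p21 probe had little room to be called higher while its control well stayed detected. The order among the 10 is therefore a description only. The panel 1 centre rested on 6 assays, 2 of them members. Without the members the values were 4.71 for miR-1979 and 2.68 for miR-720. Relative to U6, SNORD38B and SNORD49A, miR-1979 was 3.87 higher (14.7-fold), miR-720 was 1.85 higher (3.60-fold) and miR-1974 stood at -1.81. Over the settings tried that gave a value, miR-1979 ran from 3.87 to 6.01 and miR-720 from 1.46 to 3.98. At a limit of Cq 32 miR-1979 gave no value, because its PC-3 control well had Cq 33.97. All values of miR-1979 in this comparison rest on that 1 well, near the limit of 35, where few template molecules are present. miR-886-5p was detected with the control probe only.

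**Figure D3:**
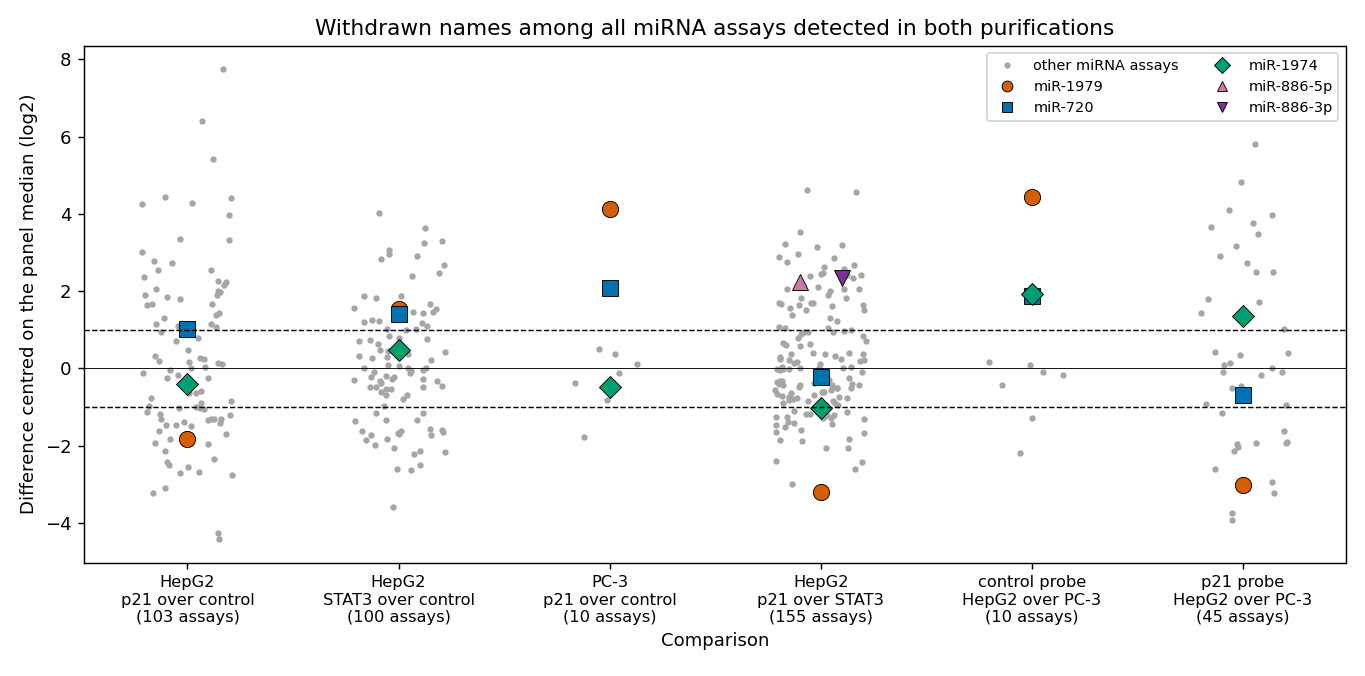
Centred differences (log2) of all microRNA assays detected in both purifications of each comparison (grey points), with the withdrawn names as coloured symbols and dashed lines at 2-fold. miR-1979 is the highest point for the p21 probe in PC-3 (4.11) and for the control probe between lines (4.44), and the lowest for p21 over STAT3 in HepG2 (-3.19).

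The authors' deposited table gives another size for miR-1979 in PC-3. It lists 1.909-fold for the p21 probe over the control, whereas the same table's formula, rebuilt from the Cq values with UniSp6 as the scale, gives 45.7-fold. The rebuilt value also rests on the PC-3 control well at Cq 33.97. The listed 1.909 is the rebuilt value of the entry above it, miR-1972 (1.91). In that column the entries from miR-191* to miR-1979 form a run of 23, of which 22 hold the value of the entry above to within 0.01 log2 units. An entry held its own rebuilt value in 729 of 729 cases in the HepG2 p21 column, in 640 of 729 in the STAT3 column and in 712 of 729 in the PC-3 column. The cause of the 89 STAT3 mismatches was not tested. The values of the members given next equal the rebuilt ones within that tolerance. For miR-720 the authors' deposited table lists 4.269-fold for p21 and 5.252-fold for STAT3 in HepG2, and 11.23-fold for p21 in PC-3. For miR-1979 the authors' deposited table lists 0.585 for p21 and 5.679-fold for STAT3 in HepG2.

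The rebuilt formula sets wells above Cq 35 or without a Cq to 35, so the entries of the miR-886 arms in the authors' deposited table are no measured folds. In HepG2 both control wells were above the limit, and the listed 16.1 for miR-886-5p and 12.5 for miR-886-3p with the p21 probe are lower bounds on the UniSp6 scale, as are 3.638 and 2.609 with the STAT3 probe. In PC-3 the authors' deposited table lists 0.67 for miR-886-5p, an upper bound because its p21 well gave no Cq. It lists 0.71 for miR-886-3p, detected in neither PC-3 purification, so that this entry holds the UniSp6 shift of 0.49 cycles alone. miR-1974 was not matched to an entry of that table. Its rebuilt values are 1.24-fold for p21 and 1.73-fold for STAT3 in HepG2, and 0.97 for p21 in PC-3.

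The p21 and STAT3 purifications of HepG2 could be compared without the control, and here all 5 names were measured. miR-1979 was the lowest of 155 assays, at -3.19 (0.11 of the panel shift). The miR-886 arms were higher with the p21 probe, at 2.23 for miR-886-5p (4.69-fold) and 2.35 for miR-886-3p (5.09-fold). miR-1974 was at -1.03 and miR-720 at -0.21. That made 2 of 5 higher and 2 lower, beside 29% of 155 assays higher and 20% lower, with a median of -0.21. On U6, SNORD38B and SNORD49A the values were -3.24 for miR-1979, 2.18 and 2.30 for the miR-886 arms, -1.15 for miR-1974 and -0.26 for miR-720. Over the settings tried that gave a value, miR-1979 kept its sign, from -3.28 to -1.57, and so did miR-886-5p, from 2.14 to 3.85, and miR-886-3p, from 2.26 to 3.97. At a limit of Cq 32 neither arm gave a value. miR-1974 lost its call without centring (-0.95), on UniSp6 (-0.48), at a limit of Cq 37 (-0.94) and with undetected wells set to 35 (-0.66), and was at -2.67 at a limit of Cq 32.

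A member pair on 1 panel shows the split without any centre. miR-1979 was 3.79 cycles behind miR-720 with the p21 probe, 0.81 with the STAT3 probe and 0.92 with the control probe in HepG2. In PC-3 it was 1.46 cycles behind with the p21 probe and 3.49 with the control probe. The p21 purification of HepG2 and the control of PC-3 were thus alike in this gap, and the other 3 purifications had smaller gaps.

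The arms of miR-886 kept a near constant ratio between the p21 and STAT3 purifications of HepG2, where both were detected. Each value is 1 well, and the STAT3 wells lay near the limit, at 33.62 and 34.10. miR-886-3p was 0.36 cycles behind miR-886-5p with the p21 probe and 0.48 with that against STAT3, a change of -0.12. Across 6 arm pairs that shared a panel and were detected in both purifications, miR-886 included, the median size of this change was 1.48 cycles. The change of miR-886 was the smallest of the 6. Pairs split between the panels were left out. With the HepG2 control the order was the other way, -2.67, but both wells lay above Cq 35. With the PC-3 control the gap was 0.90, with miR-886-3p above the limit.

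Between the control purifications, HepG2 over PC-3, the 3 measured members were all higher and were the only assays called higher of the 10. A further 115 assays were detected in the HepG2 control only and 6 in the PC-3 control only, and these had no measured difference. An assay already weak in the HepG2 control had little room to be called higher and stay detected in PC-3, so this is a description only. miR-1979 was at 4.44, miR-1974 at 1.92 and miR-720 at 1.87, which is 3 of 3 higher and 0 lower beside 30% of 10 assays higher and 20% lower. The mean of U6, SNORD38B and SNORD49A differed little between these controls, by 0.20 cycles on panel 1 and 0.27 on panel 2. Singly, SNORD49A differed by 0.89 and 1.03 in the same order, U6 by -0.0006 and -0.34, and SNORD38B by -0.29 and 0.11. Relative to the mean of these RNAs miR-1979 was 5.83 higher in HepG2 (57.0-fold), miR-720 was 3.27 higher (9.64-fold) and miR-1974 was 2.07 higher (4.20-fold). Relative to single reference RNAs miR-1974 ran from 1.31 (SNORD49A) to 2.68 (U6). miR-886-5p was detected in the PC-3 control only. The values of miR-1979 between the controls rest on the PC-3 control well at Cq 33.97, close to the detection limit.

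Between the p21 purifications, HepG2 over PC-3, the order differed. miR-1974 was at 1.35 (2.54-fold), miR-720 at -0.69 and miR-1979 at -3.02. The count was 1 higher and 1 lower of 3, beside 37.8% of 45 assays higher and 31.1% lower. The panel centre itself was 2.50 cycles on panel 1, so without centring miR-1979 stood at -0.51, which ends the call, and miR-720 at 1.82. On UniSp3 miR-1979 turned to 0.54. On the reference RNAs miR-1979 was at -1.01, miR-720 at 1.31 and miR-1974 at 2.03. Both miR-886 arms were detected in HepG2 only, as were 166 assays in all. They were at least 3.34-fold higher for miR-886-5p and at least 2.60-fold higher for miR-886-3p after centring, in places 24 and 31 among the 166.

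**Figure D4:**
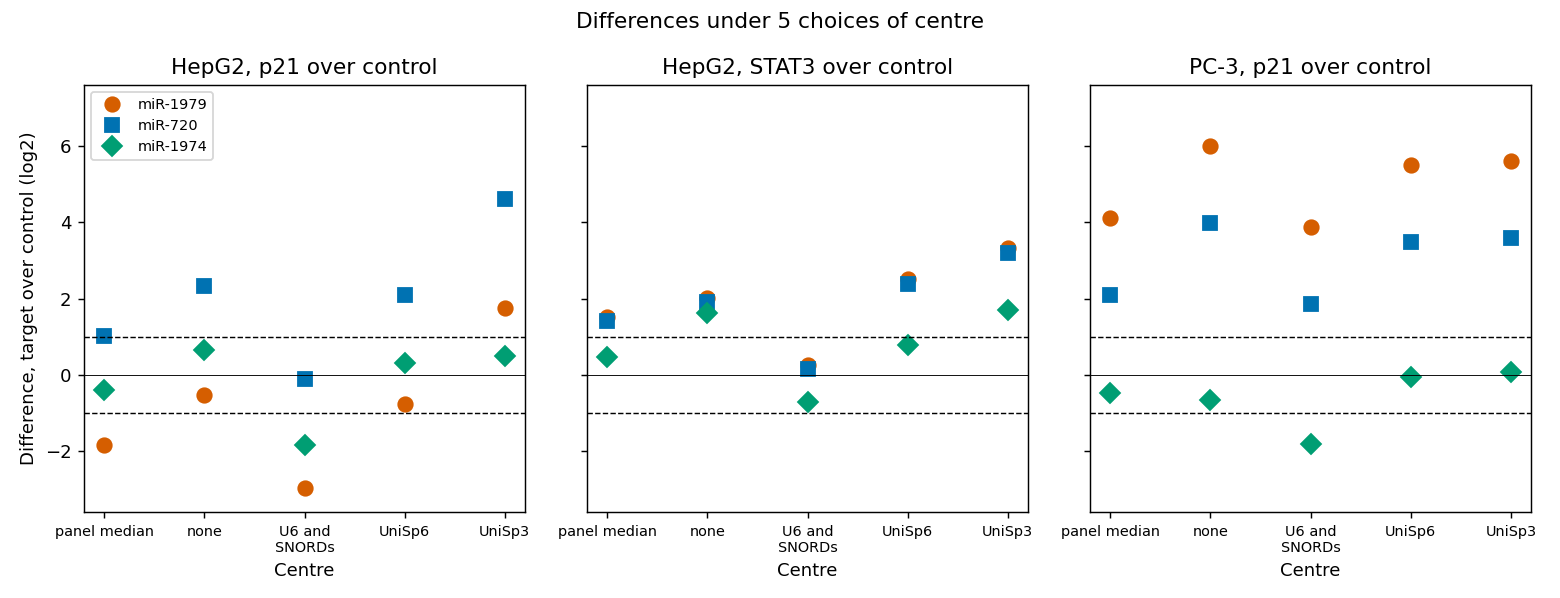
Differences (log2) between target and control purification for miR-1979, miR-720 and miR-1974 under 5 choices of centre, with dashed lines at 2-fold. In PC-3 miR-1979 lies between 3.87 and 6.01 and stays above 2-fold, whereas in HepG2 with the p21 probe it runs from -2.97 to 1.74.

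Likeness of profile was measured as the root mean square difference of Cq over the purifications in which a member was detected, each assay centred on its own mean, among assays of the same panel detected in all of these. For miR-1979 the nearest of 5 candidates was miR-720 (1.28 cycles over 5 purifications), then miR-324-3p (1.87) and miR-663 (1.93), with SNORD49A (1.99), U6 (2.33) and SNORD38B (2.38) farther away than these. For miR-720 the nearest were miR-324-3p (1.23), miR-663 (1.26) and miR-1979 (1.28), while SNORD49A was nearer than each of them, at 0.97. For miR-1974 the 2 candidates were miR-520h (1.44) and miR-1266 (2.05), again with SNORD49A nearer, at 1.17. For miR-886-5p, over 3 purifications and 7 candidates, the nearest were miR-663 (1.24), miR-324-3p (1.40) and miR-720 (1.68), with SNORD38B at 0.85 and SNORD49A at 0.90. With so few candidates these are descriptions of order only, and wells of 1 purification share its input.

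Other names reported to overlap noncoding RNAs gave much weaker signals than miR-720, miR-1974 and miR-1979. Of 23 such names, 5 were on the panels: miR-1260, which matches a leucine transfer RNA, miR-1248 and miR-664, which lie in small nucleolar RNA genes, and the bracketed miR-1201 and miR-1259. With the p21 probe in HepG2 4 of the 5 were detected and with the STAT3 probe 3, against 0 with the HepG2 control and 0 in both PC-3 purifications. The lowest Cq was 33.19, for miR-1201 with the p21 probe. None of the 5 could be measured in both a target and its control purification, so no centred difference against a control exists for them.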

How the data were processed

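The authors deposited unnormalised Cq values, 1 well per assay, and a table of fold ratios (2 to the power of minus ΔΔCt against an unnamed housekeeping gene, per the file headers; titled log fold change, but linear). Per the labels, RNA was isolated with TRIzol and measured on Exiqon SYBR Green panels; the labels give no instrument, threshold or probe sequence. That both panels of a condition hold 1 purification was read from the shared labels. Members and lists were chosen with earlier results of these data known.

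Differences were computed in Python 3.11.15 with pandas 2.3.3, per panel, without a test. Detection was a Cq of at most 35 and a call was 1 log2 unit. Where a member was detected in only 1 of the purifications compared, a bound was computed with the other at Cq 35. The named assays were the 5 members, the reference assays, the 3 assays of the panel with the nearest profile, and a list of other names. The calculation was tested on simulated data with less noise than the repeated wells, few shifted assays and Cq values moved away from the limit. That checks the arithmetic, not the precision of these values. Alternatives were other centres, Cq limits of 37 and 32, and undetected wells set to 35. Precision covers repeated wells, not purification.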

Additional observations from a re-analysis of the deposited data

Results flagged for a closer look

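For the p21 probe against the control, miR-1979 stood at -1.84 in HepG2 and at 4.11 in PC-3 (log2, centred on the panel median), and without centring at -0.54 in HepG2 and 6.01 in PC-3. The uncentred HepG2 value is under 2-fold and below the SD of 0.724 of a difference between repeated wells. Both PC-3 values rest on a control well at Cq 33.97, near the limit of 35. The difference between the lines was not tested, because each condition was purified 1 time. The HepG2 value was -0.77 on UniSp6 and turned to 1.74 on the UniSp3 calibrator.

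miR-886-5p had Cq 30.76 with the p21 probe in HepG2 and was not detected with the HepG2 control, whereas in PC-3 it was not detected with the p21 probe and had Cq 34.92 with the control. This opposite pattern was not tested either, and the PC-3 value lies next to the limit of 35.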

How the results depend on the processing

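Values of single members against the panel median moved by less than the SD of 0.724 cycles in 98 comparisons of a setting with the main value, moved by more in 54 and changed the sign of a called value in 4. The sign changes were miR-720 for p21 in HepG2, at -0.11 on U6, SNORD38B and SNORD49A and at -0.032 with a limit of Cq 32, and miR-1979 on UniSp3, at 1.74 for p21 in HepG2 and at 0.54 for the p21 probe between lines. The cause was not tested. Of counts of members called, p21 in HepG2 (2) became 1 without centring, 1 on UniSp6 and 4 with undetected wells set to 35. STAT3 in HepG2 (2) became 0 on U6, SNORD38B and SNORD49A. With undetected wells set to 35 the p21 probe between lines (2) became 4; that setting adds both miR-886 arms. At Cq 32 the counts became 0 for STAT3 in HepG2 (from 2), 1 for p21 in PC-3 (from 2), 2 for p21 over STAT3 (from 4), 1 for the control probe between lines (from 3) and 1 for the p21 probe between lines (from 2), and detected members became 3 of 5 with the STAT3 probe (from 5) and 2 of 5 with the PC-3 control (from 4). At that limit the centres rested on as few as 1 assay, on panel 2 in each comparison that involves PC-3, and there miR-1974 was its own centre. The other 46 counts stayed within 1.5 times, but an equal count can hold other members or directions. For p21 in HepG2 the main count of 2 held miR-720 (1.03) and miR-1979 (-1.84). On U6, SNORD38B and SNORD49A it held miR-1979 (-2.97) and miR-1974 (-1.85), both lower. On UniSp3 it held miR-720 (4.61) and miR-1979 (1.74), both higher. For the p21 probe between lines, miR-720 (1.82) replaced miR-1979 without centring. No paired analysis was possible because each condition was purified 1 time. Cq values near 35 come from few molecules and limit the miR-886 arms most.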
